A study of Mus musculus with 4 samples.

Results

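Ribosomal protein genes were followed across the lymphoid cells and basophils of healing mouse skin, with neutrophils of the same wounds as the reference. Members were all genes whose symbol began with Rpl or Rps and a digit. Of 95 such symbols, 10 Rps6k kinase genes and 4 pseudogenes marked -ps were left out, which gave 81 members (48 Rpl and 33 Rps) among the 21739 genes listed in the 4 libraries. One member by symbol, Rps19bp1, encodes a protein that binds a ribosomal protein and is not part of the ribosome.

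The samples were periwound skin from 6-week-old C57/BL6j mice, taken on day 7 after a full-thickness punch wound. Control mice had received phosphate-buffered saline under the skin at the wound edge, and hucMSC-Exo mice had received exosomes from human umbilical cord mesenchymal stem cells by the same route. There were 2 libraries in each group, each made from 1 mouse, and RNA was counted as unique molecular identifiers (UMIs), 1 for each captured transcript. The labels name a part of the gut as tissue in some fields and skin in others.

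After the cell filter, 952 and 2074 Control cells and 1416 and 2001 hucMSC-Exo cells remained, with 4779405 to 11243740 UMIs per library. The libraries shared between 0 and 2 barcodes pairwise. Cells were assigned by marker genes: gamma delta T cells by Cd3 and Trdc or Trdv4, CD4 and CD8 T cells by Cd3 and Cd4 or Cd8a and Cd8b1, regulatory T cells by Cd3 and Foxp3, natural killer (NK) cells by Ncr1 without Cd3, group 2 innate lymphoid cells (ILC2) by Gata3 and a type 2 marker without Cd3, and basophils and neutrophils by their own lists. No cell fell in more than 1 class. Of markers that the assignment did not use, 5 of 5 were highest in their own class for Foxp3 cells, 7 of 7 for basophils and 4 of 5 for gamma delta cells, but 1 of 4 for CD4, 3 of 5 for CD8, 4 of 7 for NK, 5 of 8 for ILC2 and 4 of 7 for neutrophils. Classes are therefore named here by the markers that defined them.

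A ribosome joins a small subunit, built with RPS proteins, to a large subunit, built with RPL proteins, and each protein is normally needed at 1 copy per ribosome. The messenger RNAs of these proteins begin with a run of pyrimidines, the 5′ terminal oligopyrimidine tract, through which mTOR signalling adjusts their translation. Lymphocytes raise ribosome production when they are activated and begin to divide, whereas mature neutrophils are short-lived cells with little protein synthesis machinery.

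The start sites of 6 of the 11 members that stood apart below are shown. They are the 5 that held one of the strings searched, and Rps23, which held none. Each window holds 15 bases before and 15 bases from the RefSeq transcript start (GRCm38.p6), 5′ to 3′ on the strand of the gene, and capitals mark a pyrimidine string. The first string searched, on both strands, was CTCTTT. The second was CTTTCC, which can overlap the first, and the third was CTTTTC.
Rpl12 (chr2:32961697-32961726, + strand): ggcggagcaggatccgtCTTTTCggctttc
Rps15a (chr7:118116133-118116162, − strand): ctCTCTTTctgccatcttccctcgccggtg
Rps9 (chr7:3704026-3704055, + strand): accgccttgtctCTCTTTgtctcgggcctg
Rps27 (chr3:90213634-90213663, − strand): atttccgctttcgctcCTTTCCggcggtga
Rps27rt (chr9:114982725-114982754, − strand): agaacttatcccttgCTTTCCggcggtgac
Rps23 (chr13:90923107-90923136, + strand): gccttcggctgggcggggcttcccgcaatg
The other 5 of the 11 (Rps24, Rps27l, Rpl7l1, Rpl37 and Rpl41) held none of the strings, so that 5 of 11 held one. Of the 62 members matched in the RefSeq promoter table, 20 (32.3%) held at least 1 of the 3 strings on the gene's strand, against 1047 of 27025 genes in all (3.87%). On the opposite strand the figures were 3.23% and 3.41%. A match is a description of letters near the start, and Rps23 too held none of the strings in this window. Members with a match lay on both sides of the family in the results below, since Rpl12 and Rps15a took a larger share of ribosomal protein UMIs in lymphoid cells and Rps9 and Rps27 a smaller one.

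Ribosomal protein transcripts made up the largest share of UMIs in CD8, NK, CD4 and ILC2 cells and the smallest in neutrophils. In CD8 cells the share was 29.8%, 30.9%, 27.6% and 29.6%, with both Control libraries given first and both treated ones last, here and below. The same shares were 8.44%, 5.88%, 8.82% and 6.37% in neutrophils. Every CD8 share thus lay above every neutrophil share.

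In gamma delta T cells the share was 16.5%, 18.7%, 19.9% and 19.9% of UMIs. Foxp3 cells gave 22.7%, 22.0%, 25.7% and 21.9%. Basophils gave 12.3% in Control 2, 16.1% in hucMSC-Exo 1 and 12.8% in hucMSC-Exo 2, and no cell of Control 1 was assigned as a basophil. These classes lay between the neutrophils and the other lymphoid cells, and in each library that had the class its share was above that of the neutrophils. With all deposited cells, the neutrophil share of Control 1 was 15.1%, which left gamma delta cells of that library 1.61 points above it in place of 8.06. The basophil share of hucMSC-Exo 2 was then 19.8%.

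The difference from neutrophils of the same library was 22.1 percentage points ± 2.69 (SD, n = 4) for CD8, 21.4 ± 2.80 for NK, 20.4 ± 1.99 for CD4, 19.8 ± 0.778 for ILC2, 15.7 ± 1.13 for Foxp3 and 11.4 ± 2.44 for gamma delta cells. Each was positive in 4 of 4 libraries, and the exact two-sided sign-flip test gave p = 0.12, the smallest that 4 pairs allow (adjusted p = 0.146 over 7 classes). The basophil difference was 6.71 ± 0.533 (SD, n = 3), positive in 3 of 3 libraries, with an exact p of 0.25, the smallest that 3 pairs allow. The exact 95% binomial interval of a single share reached at most 0.381 points to either side, which covers counting error only.

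In the order of the means, the neighbours CD8 and NK (0.723 points apart, 2 of 4 libraries in that direction), NK and CD4 (0.974 points, 3 of 4) and CD4 and ILC2 (0.586 points, 3 of 4) were not separated beyond their spread. ILC2 lay 4.13 points ± 0.585 above Foxp3 cells and Foxp3 cells 4.29 ± 2.00 above gamma delta cells (SD, n = 4), each in 4 of 4 libraries. Gamma delta cells lay 5.78 points ± 1.76 above basophils in 3 of 3 libraries. None of these steps could pass the exact test at this number of libraries, with adjusted p between 0.438 and 0.75.

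**Figure D1:**
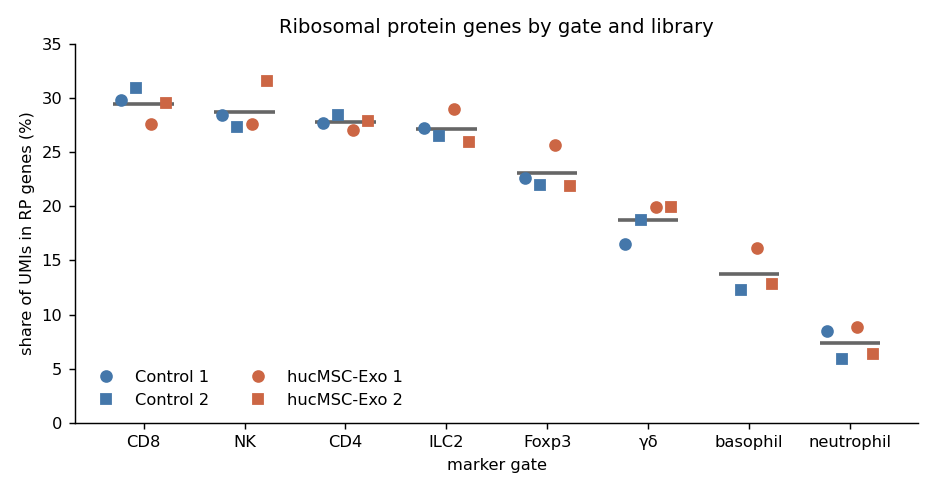
Ribosomal protein share of all UMIs (%, y axis) in each marker-defined class (x axis), 1 point per library coloured by treatment group, with a horizontal line at the mean. CD8, NK, CD4 and ILC2 cells sit near 26.0 to 31.6%, gamma delta cells at 16.5 to 19.9% and neutrophils at 5.88 to 8.82%.

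A share can differ through the ribosomal protein transcripts or through all others, and both differed here. A CD4 cell held a mean of 1161 to 1580 ribosomal protein UMIs over the 4 libraries and a gamma delta cell 677 to 918, whereas a neutrophil held 141 to 190.05. The UMIs of all other genes were 3131 to 4086 per CD4 cell, 2991 to 3693 per gamma delta cell and 1887 to 2259 per neutrophil. The other transcripts of CD4 and gamma delta cells therefore overlapped in range, and the ribosomal protein transcripts did not. Among cells with 1500 to 4000 UMIs, the share was 15.4 to 18.9% in gamma delta cells and 4.43 to 8.41% in neutrophils, still without overlap. Depth was not equal in that range, where the median UMIs were 2974 to 3396 in gamma delta cells and 1955 to 2223 in neutrophils.

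Within the gamma delta cells the share differed between 2 subsets. They were defined by receptor chain and IL-17 programme together, so these traits were not separated. Cells with Tcrg-V5, the chain of resident epidermal T cells, and none of Il17a, Il17f or Cd163l1 had ribosomal protein shares of 13.5%, 14.4%, 14.7% and 13.8% (61, 38, 30 and 34 cells). Cells without Tcrg-V5 and with at least 2 of 6 markers (Il17a, Il17f, Cd163l1, Il23r, Blk and Tcrg-V6) had 23.2%, 21.7%, 23.9% and 22.6% (44, 115, 126 and 239 cells). The cells in neither subset were 72.9%, 56.5%, 62.9% and 42.6% of gamma delta cells, with shares of 15.8%, 17.2%, 17.9% and 16.1%. The ranges of the 2 subsets did not overlap, and the IL-17 subset lay 8.73 points ± 1.03 higher (SD, n = 4), in 4 of 4 libraries (exact p = 0.12, the smallest possible). Its cells also held more UMIs in each library, with medians of 3904 to 5192 against 3249 to 4173 in the Tcrg-V5 subset. The subsets were not compared at equal UMIs, so the part of depth was not tested.

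Between the same subsets, edgeR's quasi-likelihood test on summed UMIs, with Benjamini-Hochberg adjustment over all genes, called 75 of 78 tested members higher in the IL-17 subset and 0 lower, while 18.4% of all 4656 genes were higher and 17.8% lower. The median log2 fold change of the members was 0.81, against -0.01 over all genes. Rps26, a small-subunit protein, led with a log2 fold change of 1.47 (adjusted p = 5.33e-10). Rpl12, part of the stalk base of the large subunit, stood at 1486, 1209, 1502 and 1542 CPM (UMIs of the gene scaled to a common library total) in the Tcrg-V5 subset and at 3532, 3140, 3427 and 3074 in the IL-17 subset. All 4 Rpl12 values of the IL-17 subset lay above all 4 of the other (log2 fold change 1.35). Rpl7l1, Rps27l and Rps27rt did not pass the test. These subsets were defined after earlier results of these cells were known.

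**Figure D2:**
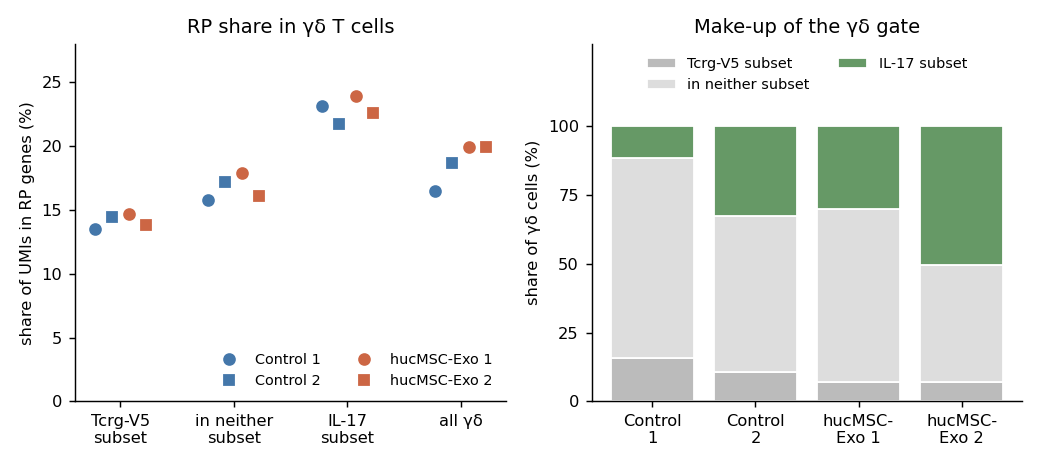
Left, ribosomal protein share of UMIs (%, y axis) in the gamma delta subsets and in all gamma delta cells (x axis), 1 point per library; right, share of gamma delta cells (%, y axis) in each subset, 1 stacked bar per library. On the left the Tcrg-V5 subset lies at 13.5 to 14.7% and the IL-17 subset at 21.7 to 23.9%, and on the right the IL-17 subset makes up 11.3 to 50.2% of the cells.

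Gene by gene, nearly the whole family was higher in every lymphoid class than in neutrophils. In 1 edgeR fit of 4373 genes with the library as a block, 77 members were tested, and Rpl7l1, Rps19bp1, Rpl3l and Rpl39l were left out for low counts. In CD8 cells 75 of 77 were higher and 0 lower (28.7% and 32.4% of all genes). CD4 cells had 74 higher and 0 lower (29.3% and 34.5% of all genes), NK cells 74 and 0 (25.7% and 32.1%), and ILC2 74 and 0 (27.0% and 32.6%). Foxp3 cells had 72 higher and 1 lower (29.3% and 33.8%). Gamma delta cells had 68 higher and 2 lower (33.6% and 35.5% of all genes), and basophils 68 higher and 1 lower (11.6% and 24.1%). These 7 comparisons share the same neutrophils.

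The median log2 fold change of the members was 1.53 in CD8, 1.47 in NK, 1.39 in CD4, 1.37 in ILC2, 0.78 in basophils and 0.76 in gamma delta cells, with Foxp3 cells at 1.01. The medians over all genes were -0.03, -0.11, -0.01, -0.05, -0.52, 0.04 and -0.02 in the same order. With scaling factors computed without the members, the all-gene median moved to between -0.20 and 0.46 and the share of calls that were higher from 32.4 to 48.6% up to 45.9 to 62.2%, so levels are best read against that median. The members' median minus the all-gene median was 0.66 to 0.71 in gamma delta and 1.51 to 1.56 in CD8 cells under all 3 scalings. Neutrophil sums also carried more UMIs of listed macrophage markers, Lyz2 and Cd68 among them (1155 to 2047 CPM over 8 genes, 1 at 0, against 0 to 595 elsewhere). Keratinocyte marker UMIs were higher there too (1505 to 2909 CPM over 6 genes, none at 0, against 374 to 1310). Whether the neutrophils made these transcripts themselves was not tested, nor was their part in the difference.

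**Figure D3:**
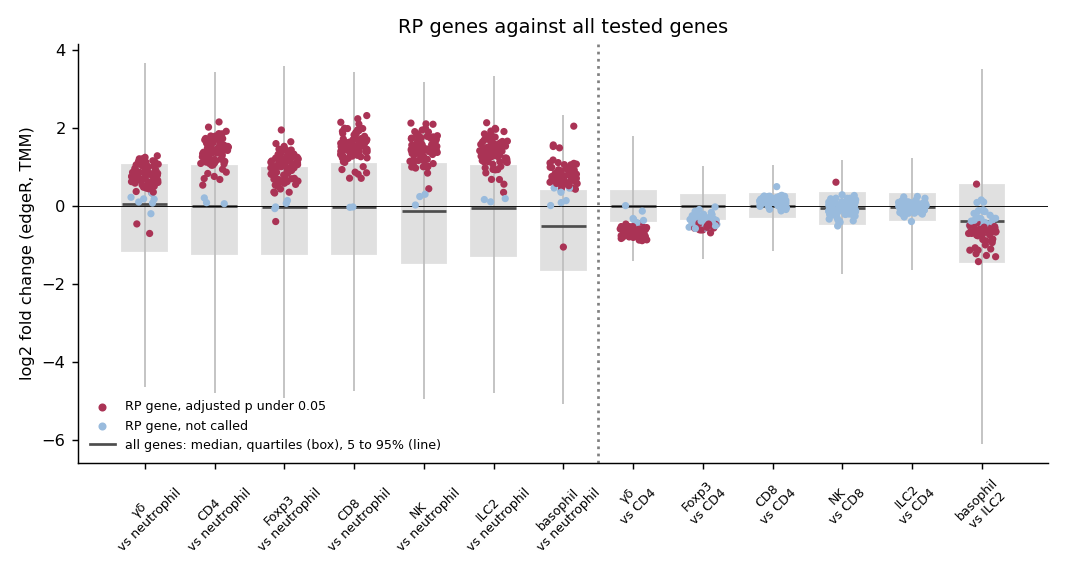
log2 fold change (y axis) of each tested ribosomal protein gene, 1 point per gene coloured by its call, in 7 comparisons against neutrophils and 6 between other classes (x axis, divided by a dotted line), over the median, quartiles (box) and 5 to 95% range (line) of all tested genes. Left of the dotted line nearly all points lie above the all-gene median of -0.52 to 0.04, and right of it all but 1 lie below 0 in gamma delta against CD4 cells, with a median of -0.65.

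Rpl12 had the largest fold change of the family in CD4, CD8, Foxp3, ILC2 and gamma delta cells. It stood at 3860, 4144, 3966 and 3993 CPM in CD4 cells and at 647, 479, 797 and 444 CPM in neutrophils. The lowest CD4 value was above the highest neutrophil value, and the log2 fold change was 2.16 (SE 0.18, adjusted p = 1.75e-12 by edgeR). Rps15a (2.03 in CD4 and 2.25 in CD8 cells) and Rps24 (1.92 and 2.16), both of the small subunit, came next in these classes. In basophils the order differed, with Rps23, a protein of the decoding centre, first at 2.06 and Rps24 second at 1.57.

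The study names Rpl24, Rpl32, Rps19 and Rps27a as lower with hucMSC-Exo within its neutrophil subtypes, which is another comparison. None of them was called between hucMSC-Exo and Control in neutrophils here, but neither was any other of the 3897 genes tested. With 2 libraries in each group, that comparison could not decide on the study's result. Against neutrophils these genes were among the higher ones. The exception was Rps27a, made as a fusion with ubiquitin, which did not pass the test in gamma delta cells (0.18) or in basophils (0.14). Over the 7 classes the log2 fold change was 0.65 to 1.55 for Rps19, 0.53 to 1.34 for Rpl24 and 0.95 to 1.92 for Rpl32. The most abundant members by their share of the family were Rps24 (2.81%), Rps29 (2.47%) and Rpl13 (2.26%). The Rpl genes together took 51.2 to 55.8% of ribosomal protein UMIs in the sums of class and library.

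The paralogs were low beside their parents. Over the cells of the 8 classes Rpl22l1 had 8229 UMIs and Rpl22 19631, and Rpl36al had 8481 and Rpl36a 14548. Rpl7l1 (477), Rpl39l (51) and Rpl3l (25) were far below Rpl7 (22811), Rpl39 (47577) and Rpl3 (21310). Rpl22l1 rose with the family, by a log2 fold change of 1.22 in gamma delta, 1.74 in CD4 and 1.99 in CD8 cells against neutrophils (each called by edgeR). Reads of near-identical copies such as Rps27 and Rps27rt, or Rpl36a and Rpl36al, may not be told apart, so the values of those genes are uncertain.

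To remove the shift of the whole family, each gene's share of ribosomal protein UMIs was set against its share in the neutrophils of the same library. A gene was said to deviate where the log2 difference had the same sign and a size of at least 0.58 in every library, a description with no test. Of the 81 members, 11 deviated in at least 1 class, between 2 and 6 genes in each class.

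Rps9, a small-subunit protein near the mRNA entry channel, deviated downwards in 7 of 7 classes. It took 2.89 to 3.92% of ribosomal protein UMIs in neutrophils, 1.34 to 1.44% in gamma delta, 1.39 to 1.55% in CD4 and 1.11 to 1.42% in CD8 cells. Its deviation was -1.37, -1.54, -1.11 and -1.47 in gamma delta cells and -1.73, -1.61, -1.03 and -1.58 in CD8 cells. Basophils deviated least, with -0.96, -0.61 and -0.63. As a level, Rps9 stood at 2372, 2514, 2678 and 2797 CPM in gamma delta cells and at 3119, 2302, 2549 and 2476 CPM in neutrophils, and those ranges overlap. CPM do not carry the scaling factors of the edgeR fit, so here and elsewhere their ratios can differ from its fold changes.

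The fold change of Rps9 against neutrophils was therefore small where that of the family was large. It was -0.70 (SE 0.13, adjusted p = 1.40e-05 by edgeR) in gamma delta and -0.39 (adjusted p = 0.00868) in Foxp3 cells, and did not pass the test in the other 5 classes, at -0.02 to 0.11. In CD8, NK and basophil comparisons its sign changed with scaling, filter or gate, and the call in Foxp3 cells was lost with scaling factors computed without the members (-0.07, adjusted p = 0.658). The deviation within the family does not use those scaling factors.

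Rps27, a zinc-binding protein of the small subunit, deviated downwards in gamma delta (mean -0.85), Foxp3 (-0.93), NK (-0.95) and ILC2 (-0.95) cells. It took 2.74 to 3.75% of ribosomal protein UMIs in neutrophils and 2.38 to 2.93% in basophils. Its own fold change against neutrophils was -0.19 in gamma delta and -0.018 in Foxp3 cells, neither called, and both signs turned under another scaling. Its paralog Rps27l deviated downwards in CD4, Foxp3, CD8, NK and ILC2 cells, and its fold changes there, between -0.028 and 0.25, were not called and changed sign under at least 1 setting in each of these classes. Rps27rt deviated downwards in NK and ILC2 cells, Rpl7l1 in CD4, CD8 and NK cells, Rpl41 in CD8 and Rpl37 in ILC2 cells.

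Rpl12 deviated upwards in CD4 (0.85), Foxp3 (1.05), CD8 (0.88) and ILC2 (0.85) cells, taking 0.698 to 0.904% of the family's UMIs in neutrophils. Rps15a did so in CD8 cells (0.78). In basophils Rps23 took 3.41 to 4.17% of ribosomal protein UMIs and in neutrophils 1.52 to 1.71%, a deviation of 1.16, 1.40 and 1.32 in the 3 libraries, and Rps24 deviated upwards there too (0.75). No library had a gene whose share differed from that in the other libraries by a log2 size of at least 1 with the same sign in at least 6 classes.

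**Figure D4:**
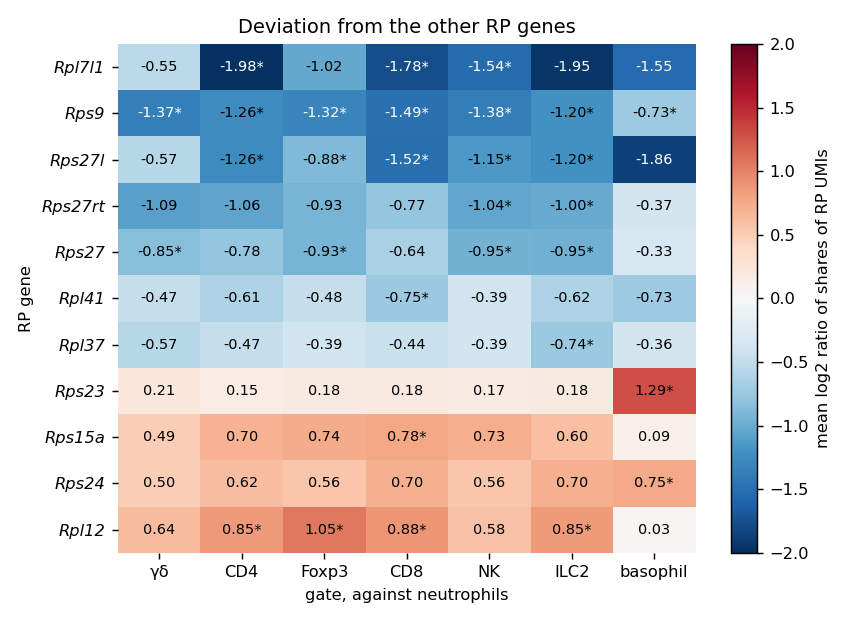
Mean log2 deviation from the other ribosomal protein genes against neutrophils (colour scale) for the 11 deviating genes (rows) in 7 classes (columns), with the value printed and an asterisk where every library reached the size of 0.58 with the same sign. Rps9 is marked in all 7 classes and Rps23 in basophils alone.

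Between lymphoid classes, gamma delta cells stood below CD4 cells across the family. Rps19, a small-subunit assembly protein, was at 2305, 2342, 2693 and 2440 CPM in gamma delta and at 4351, 4316, 4379 and 3922 CPM in CD4 cells. The 2 sets of values did not overlap, and Rps19 fell by 0.88 on the log2 scale (adjusted p = 6.06e-05 by edgeR). In all, 70 of 77 members were lower and 0 higher (12.3% and 12.6% of all genes), with a median of -0.65. When the IL-17 subset alone stood for the gamma delta cells, 11 members were called.

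Foxp3 cells had 17 of 77 members lower than CD4 cells and 0 higher (3.29% and 3.11% of all genes), with a median of -0.42. Rps29, a small-subunit protein, stood at 4821, 4107, 4898 and 4617 CPM in Foxp3 and at 6105, 6457, 6454 and 6629 CPM in CD4 cells. The values did not overlap, and the log2 fold change was -0.61 (adjusted p = 0.00441 by edgeR). That call was lost without Control 2 or hucMSC-Exo 2. This count fell to 0 without Control 2, to 1 without hucMSC-Exo 2 and to 3 without Control 1.

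CD8 and CD4 cells did not differ by edgeR in any member (3.70% of all genes called), and 1 member was called by DESeq2. At an unadjusted p under 0.05 by edgeR there were 2 of 77 members and 580 of all 4373 genes. ILC2 and CD4 cells did not differ in any member either (6.97% of all genes called). There, 1 member and 755 of all genes had an unadjusted p under 0.05. NK and CD8 cells differed in Rpl10 alone (2.01% of all genes higher and 1.85% lower), a large-subunit protein added late in assembly, with 0.62 in favour of NK cells (adjusted p = 0.00885 by edgeR). That call was lost on leaving out any 1 of the 4 libraries.

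Basophils had 53 of 77 members lower than ILC2 and 1 higher (17.0% and 14.2% of all genes), with a median of -0.57 against -0.39 over all genes. Rps20 (-1.42, adjusted p = 3.87e-07), Rpl12 (-1.30) and Rpl3 (-1.26) fell most, and Rps23 was the one higher (0.57, adjusted p = 0.00411 by edgeR). The number called was 31 without hucMSC-Exo 1, whose 78 cells were the largest ILC2 sum, and 14 without hucMSC-Exo 2.

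The rest of the translation apparatus was read from lists of named genes. Of 7 other cytosolic ribosome genes, 6 were higher than in neutrophils in each of the 6 lymphoid classes and 5 in basophils. Over all genes, 25.7 to 33.6% were higher and 32.1 to 35.5% lower in the lymphoid classes, and 11.6% higher and 24.1% lower in basophils, which is the background for this and the next lists. Rpsa, a small-subunit protein, had log2 fold changes of 1.21 to 2.26 in the lymphoid classes. Fau, whose product carries ribosomal protein S30, instead fell by 0.85 in gamma delta cells (adjusted p = 1.40e-06 by edgeR), by 0.40 in Foxp3 cells (adjusted p = 0.0111) and by 0.44 in NK cells (adjusted p = 0.00641). Fau was read under the main scaling only. Scaling factors computed without the members raised the members' median from 1.015 to 1.341 in Foxp3 and from 1.469 to 1.801 in NK cells. The falls of Fau in these 2 classes may therefore not hold under that scaling. Of 7 elongation genes, 5 or 6 were higher in each lymphoid class and 3 in basophils, and 1 was lower in CD4, Foxp3, CD8 and basophil cells. Of 28 initiation factor genes 14 to 18 were higher and 2 to 6 lower in the lymphoid classes, and 4 were higher and 4 lower in basophils. Eif1, which selects the start codon, was lower in all of them.

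Of 13 tested ribosome assembly genes, 5 to 11 were higher in the lymphoid classes and 0 in basophils, and none was lower; 5 of 13, in Foxp3 cells, is near the background. Of the mitochondrial ribosomal protein genes, a separate family with lower counts, 40 of 78 were tested, with 14 to 20 higher and 2 to 4 lower in the lymphoid classes and 0 higher and 4 lower in basophils. Of 6 tested cell cycle genes, 2 to 5 were higher in the lymphoid classes, where 2 of 6, in Foxp3 cells, is near the background, and 0 in basophils.

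With groups taken from the sample titles, no member was called between hucMSC-Exo and Control in any of the 8 classes by edgeR (75 to 79 members tested), and none by DESeq2. The file letters pair the libraries differently, and which grouping is right was not tested. Basophils had 1 Control library, so that this arm is assumed to vary like the other. At an unadjusted p under 0.05 there were 7 in CD8 cells, 1 in CD4 cells and 0 in the others. The share of all genes at that unadjusted p is not given here, so these counts cannot be read as an excess. Over all genes the percentage called was 0.0468 in CD8 cells and 0 elsewhere. The members' median log2 fold change was 0.28 in gamma delta cells, 0.29 in neutrophils and -0.16 in CD8 cells.

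The ribosomal protein share of gamma delta cells was 19.9% and 19.9% with hucMSC-Exo and 16.5% and 18.7% in Control, 2.31 points higher. Both treated values lay above both Control values, which gives an exact permutation p of 0.33, the smallest that 2 against 2 allows. Within the Tcrg-V5 subset the difference was 0.286 points (p = 0.667, exact), within the IL-17 subset 0.789 (p = 0.667, exact) and in neither subset 0.506. The IL-17 subset made up 11.3% and 32.7% of gamma delta cells in Control and 30.0% and 50.2% with hucMSC-Exo; its part in the pooled difference was not tested. Differences in the other classes ran from -1.77 points in CD8 to 2.22 in basophils, where Control was 1 library, with adjusted p of 0.889 to 1 by the exact permutation test.

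**Figure D5:**
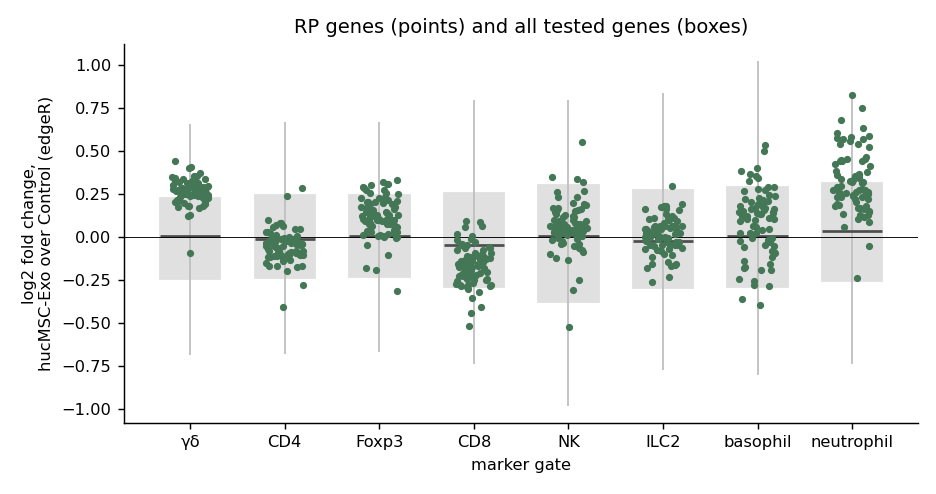
log2 fold change between hucMSC-Exo and Control (y axis) of each tested ribosomal protein gene, 1 point per gene, in each class (x axis), over the median, quartiles (box) and 5 to 95% range (line) of all tested genes. Points centre on 0.28 in gamma delta cells, 0.29 in neutrophils and -0.16 in CD8 cells, and none of them was called.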

How the data were processed

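Single cells of periwound skin were profiled by a 3′ droplet assay. The authors aligned reads to mm10 with Cell Ranger 6.1.2 and deposited UMI counts per gene and cell for each library. The study removed doublets; whether this preceded deposit is not stated, and no doublet caller was run here. The cell filter (200 to 3000 genes, no more than 10% of UMIs mitochondrial) followed the study. Cells were assigned by markers and their counts summed per library and class where at least 10 cells were present. edgeR 4.0.16 (R 4.3.3; filterByExpr, TMM, quasi-likelihood, library as a block between classes, Benjamini-Hochberg 0.05) was the main test and DESeq2 1.42.0 an alternative; shares were tested by exact permutation over libraries. Deviations added 0.5 to counts and needed a mean of 10 UMIs. On simulated data, with the same set spread for every gene, changes were placed among 4373 genes. For CD4 against neutrophils, 20% of changes of log2 size 1 and 82% of size 2 were recovered. For treatment in NK cells the figures were 2% and 8%. Only 1412 genes passed the count filter there, and changes in genes that it removed counted as not recovered. Named genes were those that led each comparison or deviated, the most abundant members, paralogs and 4 genes the study names. Groups follow the titles. The file letters pair the libraries differently, so grouping by them may change which libraries are compared for treatment. By the titles, 42 and 289 Control and 85 and 464 hucMSC-Exo cells were assigned as neutrophils. The study reports more neutrophils with hucMSC-Exo. Here both libraries numbered 2 held more than both numbered 1. The groups by title thus overlapped, with 289 in Control 2 and 85 in hucMSC-Exo 1. Which grouping is right was not tested, and the treatment results hold for the titles only. Members, lists and rules were chosen with earlier results of these data known. Some genes are not reported here, and the gamma delta subsets were defined without them after a first definition had been seen.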

Additional observations from a re-analysis of the deposited data

Results flagged for a closer look

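The difference between hucMSC-Exo and Control in the ribosomal protein share of UMIs had opposite signs in 2 classes. It was 2.31 points in gamma delta cells, with both treated libraries above both Control libraries, and -1.77 points in CD8 cells, with both below. In CD8 cells the nearest libraries lay at 29.6% and 29.8%, within their counting intervals, and with the stricter gate they overlapped, hucMSC-Exo 2 at 31.5% and Control 1 at 30.0%. The 2 effects differed by 4.08 points, and the exact permutation p of that difference was 0.33, the smallest that 2 libraries against 2 allow, so it could not pass a test.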

How the results depend on the processing

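Counts are of ribosomal protein genes called, unless stated. Against neutrophils, 68 in gamma delta cells became 45 with the Tcrg-V5 subset alone, and 68 in basophils became 35 without the count filter and 38 to 71 with 1 library left out (38 without Control 2). Gamma delta against CD4 gave 33 instead of 70 without the filter, 11 with the IL-17 subset and 47 to 68 with 1 library left out. Foxp3 against CD4 gave 11 with DESeq2 size factors, 28 with TMM without the members, 33 by DESeq2, 2 without the filter, 8 with the stricter gate, 28 among cells of 1500 to 4000 UMIs and 0 to 12 with 1 library left out, against 17. CD8 against CD4 gave 1 by DESeq2. NK against CD8 gave 3 by DESeq2, 0 without the filter, 0 with the stricter gate (1 NK library left, its spread assumed) and 0 to 0 with 1 library left out. Basophils against ILC2 gave 15 instead of 54 among cells of 1500 to 4000 UMIs, where ILC2 had 1 library and its spread is assumed, and 14 to 47 with 1 library left out. Treatment in gamma delta cells gave 0 to 3 with 1 library left out (3 without Control 2). The 11 deviating genes became 4 with all deposited cells and 20 among cells of 1500 to 4000 UMIs. Rps9 deviated in 7 of 7 classes, in 6 of the 6 that kept 2 or more libraries with the stricter gate, in 5 of 5 in that UMI range, and in 6 of 7 with all cells, where gamma delta cells were the exception. The deviation alternatives, the gamma delta subsets and all deposited cells for treatment were added after seeing the data. The causes were not tested.

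Treatment differences in share turned sign among cells of 1500 to 4000 UMIs in CD4 (2.39 points) and neutrophils (-0.59), with all deposited cells in ILC2 (-0.14) and neutrophils (-2.48, with basophils at 6.79), and with 1 library left out ranged from -0.44 to 3.38 in Foxp3, -0.32 to 3.70 in NK, -0.90 to 2.14 in ILC2 and -0.85 to 1.71 in neutrophils. Reversals in the last followed the omission of Control 2 or hucMSC-Exo 1, in Foxp3 and ILC2 that of hucMSC-Exo 1 and in NK that of hucMSC-Exo 2.

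The log2 fold changes of 3 genes that deviated within the family lay near 0 against neutrophils and turned sign. With Rps9 in CD8 cells (-0.018), DESeq2 size factors gave 0.10, TMM without the members 0.32, DESeq2 0.12, no filter 0.0056, the stricter gate 0.12, all deposited cells 0.050 and leaving out 1 library 0.055 to 0.091. Rps9 in NK cells (0.032) gave -0.078 without the filter, and in basophils (0.018) -0.16 without the filter and -0.066 with the stricter gate. Rps27l gave -0.071 in CD4 and -0.19 in Foxp3 cells of 1500 to 4000 UMIs, -0.31 in NK with the stricter gate (1 NK library) and -0.012 in ILC2 with all deposited cells. In CD8 cells (-0.028) it gave 0.13 with DESeq2 size factors, 0.34 with TMM without the members, 0.13 by DESeq2, 0.34 with the stricter gate, and -0.021 to 0.21 with 1 library left out. Rps27 in gamma delta cells (-0.19) gave 0.19 with TMM without the members, 0.033 without the filter and 0.045 in the UMI range. In Foxp3 cells (-0.018) it gave 0.16 with DESeq2 size factors, 0.31 with TMM without the members, 0.15 by DESeq2, 0.11 without the filter, 0.29 in the UMI range and 0.024 to 0.13 with 1 library left out.

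Replicate numbers are only numbers in the labels. Deviations of same-numbered libraries correlated at 0.348 in gamma delta cells but between -0.113 and 0.064 in the other classes with 4 libraries, and the fit with the replicate block called 0 members for treatment in each of 7 classes, as without it. Basophils had too few libraries for that fit.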
